A study of Temnothorax rugatulus with 32 samples.

Results

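Purine nucleoside phosphorylase splits the nucleosides inosine and guanosine with phosphate, releasing the bases hypoxanthine and guanine and ribose 1-phosphate. The bases can be salvaged into new nucleotides or broken down, guanine by way of guanine deaminase, to xanthine and uric acid. In insects the fat body, an organ of storage and metabolism that combines roles of liver and adipose tissue, is known as a site of purine breakdown and urate storage.

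The contigs described here were those that the authors' deposited tables of age differences name purine nucleoside phosphorylase from a best database hit in an ant. There were 4 such contigs among 228763 in the count table, in 3 assembly components among 174364, and all 4 carried the same cluster identifier, TR66855c0. Contig TR66855c0_g1_i1 was 1303 bases long and was named isoform X2 after a hit in Trachymyrmex cornetzi. Component TR66855c0_g2 held a contig of 2424 bases, g2_i1, and one of 540 bases, g2_i2, both named isoform X3 after Harpegnathos saltator. The shortest contig, TR66855c0_g3_i1, was named purine nucleoside phosphorylase-like after Solenopsis invicta. No further contig of the count table belonged to these components or to the cluster. The names come from protein hits, and whether the contigs are pieces of 1 gene, its isoforms or separate genes cannot be told from the files. Where reads fit more than 1 of them, the authors' counting could have split them, so the counts of single contigs are uncertain.

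The series compared queens of Temnothorax rugatulus, an ant, collected in the field and called old or young in the labels with no age in years. The 4 groups were the fat bodies of old queens, the fat bodies of young queens, the brains of old queens and the brains of young queens, with 8 libraries each. Both tissues were taken from each of the 16 queens, no genotype or treatment differed, and no pooling of animals is recorded in the labels, so the spread within a group is between animals. Library totals were 22798433 to 29614630 counts in old fat bodies, 20658985 to 31200003 in young fat bodies, 13861667 to 27434445 in old brains and 23826705 to 33461227 in young brains. Levels below are CPM, counts set to a common library size of 1000000, after scaling the 32 libraries together by the trimmed mean of M-values (TMM).

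The tissue labels were checked against word lists for cell types, which can only find contigs that the authors listed for age. Complexin, a neuronal protein of synaptic vesicle release, had a median of 0.961 CPM in old fat bodies, 0.334 CPM in young fat bodies, 103 CPM in old brains and 135 CPM in young brains. A neuronal acetylcholine receptor subunit was at 0 in 7 of 8 old and 7 of 8 young fat bodies and in no brain. The fat body list found 2 contigs, both transferrins, and transferrins are also made elsewhere. Their summed level was 965 to 8291 CPM in old fat bodies, 54.6 to 2649 CPM in young fat bodies, 137 to 451 CPM in old brains and 113 to 330 CPM in young brains. The young fat bodies therefore overlapped the brains in this list. The third contig of the neuron list, neuroligin-1-like, did not follow the other 2, with medians of 111 CPM in old fat bodies, 183 CPM in young fat bodies, 118 CPM in old brains and 139 CPM in young brains. The summed neuron list was at 82.7 to 167 CPM in old fat bodies, 146 to 216 CPM in young fat bodies, 148 to 276 CPM in old brains and 209 to 341 CPM in young brains, so it overlapped between tissues too, while complexin and the receptor subunit differed as the labels say.

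The choice of the contigs rested on the comparison of old with young fat bodies, so the values of that comparison are given as a description without a test. All 4 contigs came from the authors' deposited fat body table and none stood in their brain table of 169 contigs. The fat body table held 0.853% of the contigs with a count in a fat body library, and the 0.567% of contigs listed as higher in old queens include these 4. In the authors' deposited table, whose log2 values run young over old, the value was -3.26 for g1_i1 with an adjusted p of 0.000132 and -3.17 for g2_i1 with 0.000261. For g3_i1 the authors' deposited table gave -3.45 with 7.77e-05. Contig g2_i2 was the member closest to the threshold, at -2.43 with an adjusted p of 0.0495 in the authors' deposited table, where 1592 of 1597 listed contigs had a lower adjusted p. The table ends at 0.0497, and contigs beyond its threshold were not analysed here.

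The main purine nucleoside phosphorylase contig was higher in every old fat body than in any young one, with large differences among the young queens. Contig g1_i1, which carried most of the reads, had 76.4 CPM in the lowest, 140 CPM in the median and 341 CPM in the highest old fat body. In young fat bodies its lowest level was 0.682 CPM, its median 6.25 CPM and its highest 44.2 CPM. The 2 groups did not overlap, and their means of 171 ± 85.9 and 11.2 ± 14.8 CPM (SD, n = 8 each) in old and young queens stood in a ratio of 15.2. In raw counts the old fat bodies held 1175 to 5868 and the young ones 13 to 653. In bulk tissue, fewer cells that express the transcript and less of it per cell cannot be told apart.

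Component g2 followed the same order. Its longer contig, g2_i1, had 22.1, 40.7 and 132 CPM in the lowest, median and highest old fat body, against 0.184, 2.56 and 14.9 CPM in young fat bodies, and the groups did not overlap. Its shorter contig, g2_i2, had 2.15, 5.86 and 12.3 CPM in old fat bodies, against 0, 0.264 and 2.70 CPM in young ones. Here the groups overlapped, because young queen Y-333 lay above old queen O-426. No count of g2_i2 was found in 4 of the 8 young fat bodies, which allows at most 0.218 CPM in any of those libraries if 3 counts are taken as the limit. Such limits cover counting error only.

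Contig g3_i1 had 5.33, 10.4 and 19.4 CPM in the lowest, median and highest old fat body, against 0, 0.295 and 1.96 CPM in young fat bodies. These groups did not overlap, and 2 young fat bodies, those of Y-594 and Y-651, had no count. With libraries scaled to their totals instead of by TMM, g1_i1, g2_i1 and g3_i1 again separated old from young fat bodies without overlap, and g2_i2 again overlapped. The contigs were chosen on this comparison, which favours such separation. The share of all contigs that separate in this way is not given here, so the separation is a description only.

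**Figure D1:**
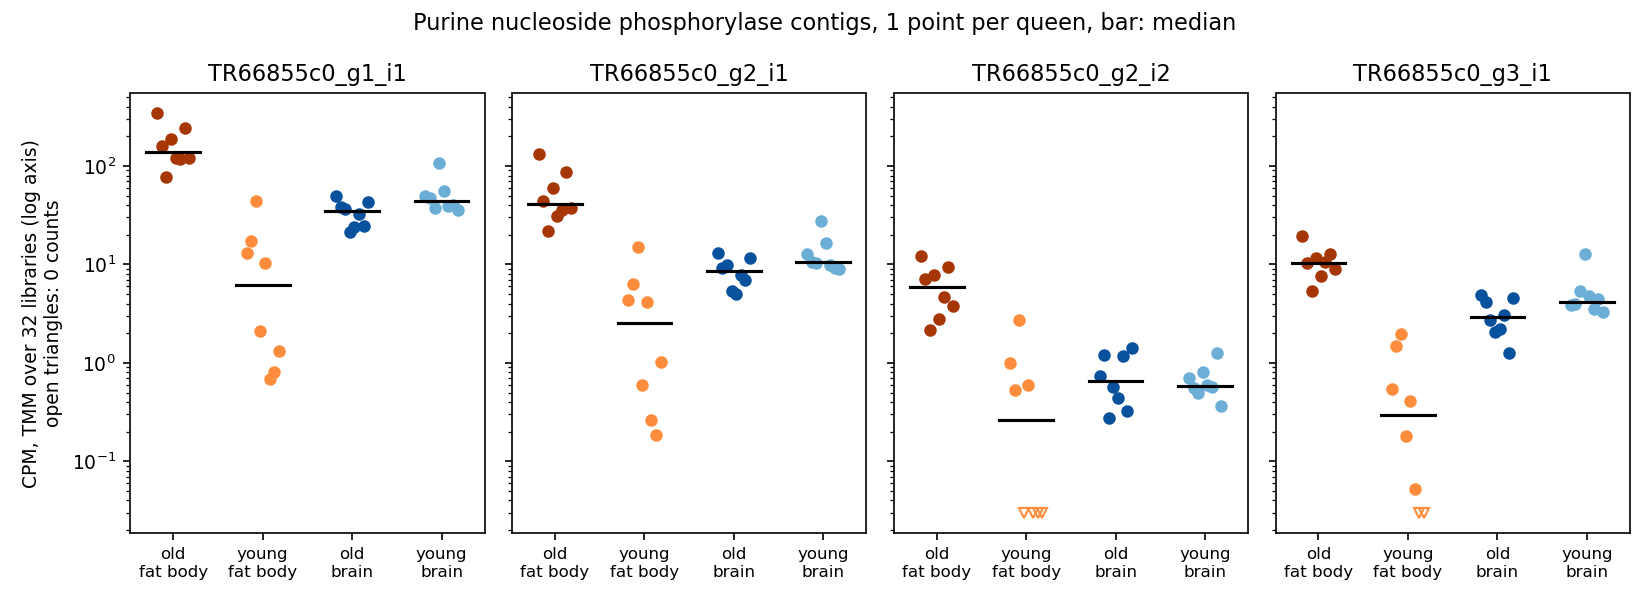
Levels of the 4 purine nucleoside phosphorylase contigs in CPM on a log axis, 1 point per queen, with the group median as a bar and open triangles for libraries with 0 counts. For g1_i1 the 8 old fat bodies lie at 76.4 to 341 CPM and the 8 young ones at 0.682 to 44.2 CPM. Young brains, at 35.9 to 106 CPM, overlap both. Old brains, at 21.4 to 49.3 CPM, overlap the young fat bodies but not the old ones.

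The young queens differed from each other far more than the old ones did. For g1_i1 the highest old fat body stood 4.47 times above the lowest, whereas the highest young fat body stood 64.7 times above the lowest. Young queens Y-333, Y-134, Y-102 and Y-453 had 44.2, 17.4, 13.0 and 10.4 CPM of g1_i1. Young queens Y-361, Y-651, Y-594 and Y-503 had 2.10, 1.31, 0.808 and 0.682 CPM. No young fat body lay between 2.10 and 10.4 CPM, and the labels name nothing that separates these queens. The order was nearly the same for g2_i1, with Y-333 highest at 14.9 CPM, and all 4 libraries without a count of g2_i2 belonged to the queens with the lowest g1_i1.

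Other cell type lists also differed between old and young fat bodies. The 3 contigs of the haemocyte list summed to 236 to 454 CPM in old fat bodies, against 98.0 to 242 CPM in young ones. Most of this sum was 1 contig, a croquemort-like scavenger receptor, whose median was 352 CPM in old fat bodies and 154 CPM in young ones. The other 2 were both named a disintegrin and metalloproteinase, a name that does not point to haemocytes. Their medians were higher in brains, for the larger 21.5 CPM in old brains against 1.40 CPM in old fat bodies. The 7 contigs of the gut and Malpighian tubule list, mostly maltase and lysosomal alpha-glucosidase, summed to 309 to 2043 CPM in old and 165 to 646 CPM in young fat bodies. Not every contig of that list had the direction of the sum: V-type proton ATPase subunit C had a median of 4.91 CPM in old fat bodies and 11.9 CPM in young ones, and antichymotrypsin-2-like 5.99 CPM in old fat bodies and 10.4 CPM in young ones. Of the 3 contigs of the muscle list, most of the sum was unconventional myosin-Va, which is not restricted to muscle, at 199 to 267 CPM in old and 271 to 391 CPM in young fat bodies. The part of these differences, and of the transferrin difference above, in the phosphorylase values was not tested.

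In brains the phosphorylase contigs were present in all 16 libraries, and the ranges of the ages overlapped. For g1_i1 the lowest, median and highest level was 21.4, 34.6 and 49.3 CPM in old brains and 35.9, 43.6 and 106 CPM in young brains. Contig g2_i1 had 4.97, 8.48 and 12.9 CPM in old brains and 9.04, 10.5 and 27.4 CPM in young brains. For g3_i1 the values were 1.25, 2.91 and 4.86 CPM in old brains and 3.31, 4.17 and 12.7 CPM in young brains. Old and young brains overlapped for each of the 4 contigs, and the high value of all 3 contigs just named came from young queen Y-361, which stood apart from the other 7 young brains.

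The old-minus-young difference in the brain was tested, since none of the 4 contigs came from the authors' brain table. The authors' own comparison of these same brains had thus not listed them. A lack of calls here is not independent of that. None of the 4 contigs passed edgeR's quasi-likelihood test (adjusted p = 1.0 each), and of 40572 contigs tested 0 were called, which is 0%, with 4.64% at an unadjusted p under 0.05. The log2 difference was -0.57 ± 0.24 (SE) for g1_i1, with a 95% interval of -1.07 to -0.06 and an unadjusted p of 0.029 in the edgeR test. For g2_i1 it was -0.59 ± 0.26 and for g3_i1 -0.71 ± 0.33, with unadjusted edgeR p of 0.039 and 0.046. Contig g2_i2 went the other way, at 0.23 ± 0.37 with an interval of -0.56 to 1.01. Without the brain of Y-361 the difference of g1_i1 was -0.34. DESeq2 called 571 contigs for age in the brain and none of these 4, with adjusted p of 0.194 or above.

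In old queens the phosphorylase was higher in the fat body than in the brain for all 4 contigs. The question of tissue was not used in choosing the contigs, but the fat body libraries were, so the differences in old and in young queens are not independent of that choice. By edgeR's quasi-likelihood test all 4 contigs were called higher in the fat body, where 55.8% of 34574 contigs tested were called, 26.1% higher and 29.7% lower. The log2 difference was 2.54 ± 0.30 (SE; adjusted p = 2.3e-06) for g1_i1 and 2.91 ± 0.37 (adjusted p = 4.6e-06) for g2_i1. It was 3.23 ± 0.47 (edgeR adjusted p = 2.0e-05) for g2_i2 and 1.99 ± 0.32 (edgeR adjusted p = 5.6e-05) for g3_i1. Summed per component, the differences were 2.59 for g1, 2.99 for g2 and 2.04 for g3, with all 3 called, where 68.8% of 23044 components tested were called, 33.5% higher and 35.2% lower.

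Each old queen showed this order. The CPM of g1_i1 was higher in the fat body than in the brain of all 8 old queens, by 2.09 to 9.81 times with a median of 4.54. For g2_i1 the ratio was 2.26 to 12.4 and for g3_i1 1.94 to 10.1, again above 1 in 8 of 8. These counts depend on the scaling, since TMM raised fat body levels against brain levels. With libraries scaled to their totals, the fat body was higher in 7 of 8 old queens for g1_i1, in 8 of 8 for both contigs of g2 and in 5 of 8 for g3_i1. The edgeR difference of g3_i1 was then 0.55 with an adjusted p of 0.13.

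In young queens the order was the opposite for g1_i1 and g3_i1, which were lower in the fat body than in the brain. By edgeR's quasi-likelihood test 2 of the 4 contigs were called, both lower in the fat body, where 57.0% of 35113 contigs tested were called, 34.0% lower and 23.0% higher. The log2 difference was -2.15 ± 0.75 (SE; adjusted p = 0.021) for g1_i1 and -3.13 ± 0.86 (adjusted p = 0.0052) for g3_i1. Contig g3_i1 passed the count filter in young queens through its brains, at 127 to 484 counts, against 0 to 29 in young fat bodies. So did g2_i1, at 350 to 1047 counts in young brains against 5 to 220 in young fat bodies. Contig g2_i1 missed the threshold at -1.69 ± 0.73 (edgeR adjusted p = 0.057). Contig g2_i2 was at -0.12 ± 0.90 (edgeR adjusted p = 0.93), with an interval of -2.02 to 1.79 that leaves its direction unknown. Per component, g1 at -2.08 and g3 at -3.07 were called and g2 at -1.49 (edgeR adjusted p = 0.073) was not, where 70.0% of 23517 components were called, 40.8% lower and 29.2% higher.

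Pairing the tissues by queen gave larger differences in young queens. When the edgeR fit carried a term for each queen as a block, g1_i1 was at -3.41 ± 0.87 (adjusted p = 0.0081) and g3_i1 at -4.16 ± 1.0 (adjusted p = 0.0060), and g2_i1 passed at -2.79 ± 0.86 (adjusted p = 0.019). In the same blocked edgeR fit g2_i2 did not pass, at -1.55 ± 1.26 (adjusted p = 0.32). Leaving out the fat body of Y-333 also took g2_i1 past the threshold, at -2.40 (edgeR adjusted p = 0.0075), and moved g1_i1 to -2.92 and g2_i2 to -1.05.

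**Figure D2:**
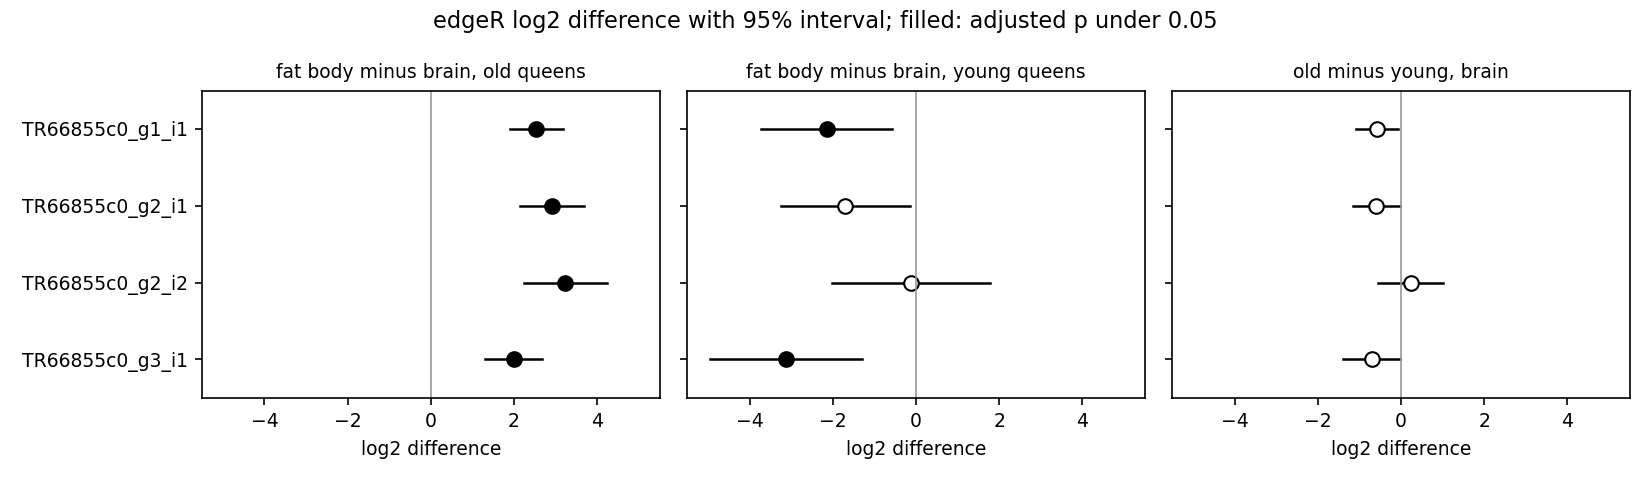
Log2 differences of the 4 contigs from edgeR with 95% intervals, for fat body minus brain in old queens, fat body minus brain in young queens and old minus young in the brain, with filled points for an adjusted p under 0.05. In old queens all 4 intervals lie above 0, and in young queens g1_i1 and g3_i1 are called below 0.

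Queen by queen, the fat body was lower than the brain for g1_i1 in 7 of 8 young queens and for g3_i1 in 8 of 8. The g1_i1 ratio of fat body to brain had a median of 0.111, with 0.0176 in the lowest queen and 1.19 in Y-333. For g3_i1 the median ratio was 0.0499 and the highest 0.376. Contig g2_i1 was lower in the fat body of 7 of 8 young queens and g2_i2 in 6 of 8. With libraries scaled to their totals, these counts were 8 of 8 for g1_i1, g2_i1 and g3_i1 and 7 of 8 for g2_i2. Whether the tissue difference itself differs between old and young queens was not tested, because that difference contains the comparison that chose the contigs.

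**Figure D3:**
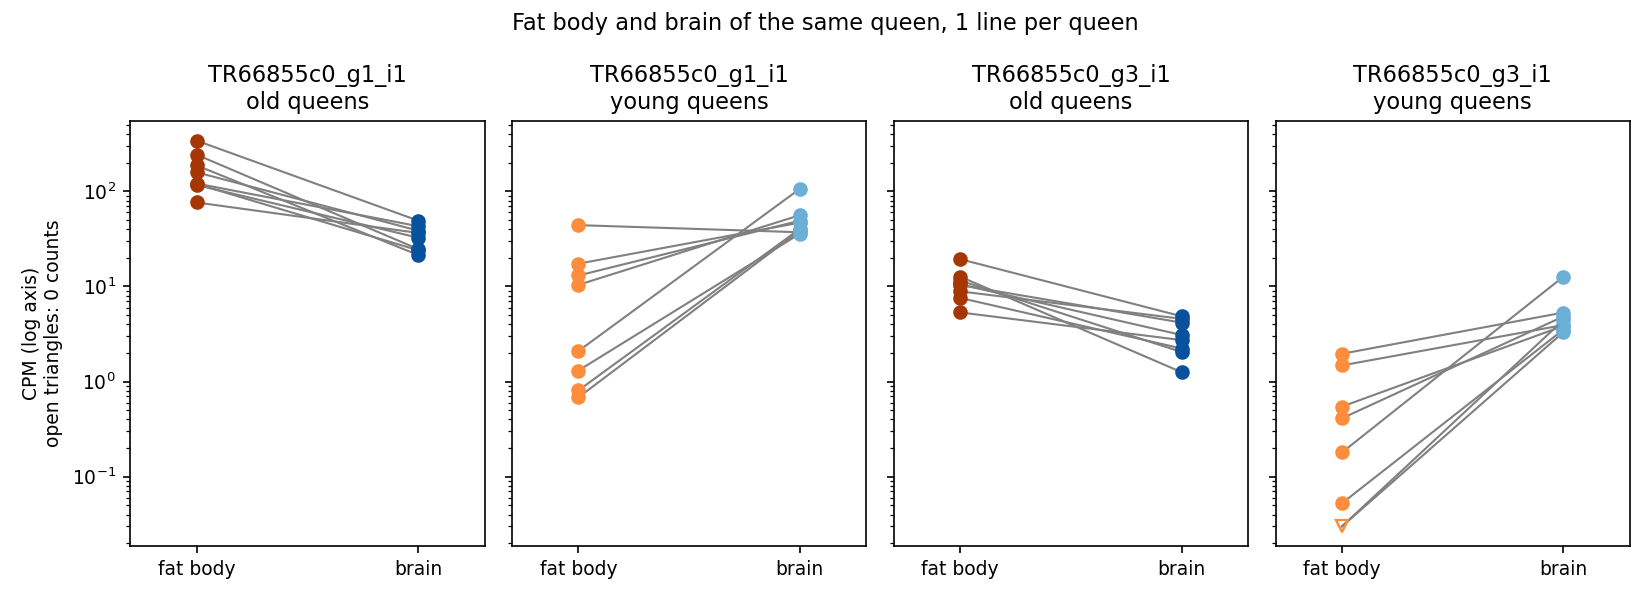
Level of g1_i1 and g3_i1 in CPM on a log axis in the fat body and the brain of the same queen, 1 line per queen, for old and young queens, with open triangles for 0 counts. In old queens every line has its fat body end on top, and in young queens its brain end, except that of Y-333 for g1_i1, at a ratio of 1.19.

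The choice of scaling shifted all contigs together. In old queens the median fat body-minus-brain log2 difference over all contigs was -0.05 with TMM, -0.68 when scaled to counts outside the 100 most abundant contigs of each tissue, and -1.44 when scaled to totals. The share of called contigs that were higher in the fat body was 46.8%, 29.2% and 15.2% in the same order. Set against the median of all contigs, g1_i1 in old queens was at 2.59, 2.54 and 2.53 under these scalings and g3_i1 at 2.04, 2.0 and 1.98. In young queens the medians were -0.27, -0.71 and -1.14 and the shares higher in the fat body 40.3%, 28.9% and 19.7%. Against those medians g1_i1 was at -1.88, -1.88 and -1.89 and g3_i1 at -2.86, -2.87 and -2.87. Rescaling moves all contigs alike, so this closeness follows from subtracting the median and is no sign of stability.

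Ordered by median, g1_i1 ran from 140 CPM in old fat bodies through 43.6 CPM in young brains and 34.6 CPM in old brains to 6.25 CPM in young fat bodies. Neighbours in this order overlapped in their ranges: the brain of Y-361 at 106 CPM exceeded the lowest old fat body, the 2 groups of brains overlapped broadly, and the fat body of Y-333 reached the range of old brains. Contigs g2_i1 and g3_i1 had the same order of medians. For g2_i2 the order was old fat bodies at 5.86 CPM, old brains at 0.651 CPM, young brains at 0.584 CPM and young fat bodies at 0.264 CPM, and only old fat bodies stood clear of both groups of brains.

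The 4 contigs varied together across fat bodies. Between pairs of contigs, Pearson's r of log2(CPM + 1) was 0.943 to 0.991 over the 8 old fat bodies and 0.863 to 0.989 over the 8 young ones. It was 0.429 to 0.964 over the brains of old queens and 0.182 to 0.976 over those of young queens. The contigs share libraries and may share reads, so these values are descriptions, and the low values in brains involve g2_i2, which had 10 to 51 counts there. No relation between fat body and brain levels was detectable across old queens. For g1, Pearson's r over 8 old queens was 0.06 (exact permutation, two-sided adjusted p = 0.954) and Spearman's rho 0.14 (exact permutation, adjusted p = 0.902), and r was 0.09 without the 2 queens farthest from the median. For g2 and g3 r was 0.18 each (exact permutation, adjusted p = 0.954 over 6 relations). Across young queens, whose fat body levels of g1_i1 fell in separate ranges, no r between tissues is given. The r among contigs over young fat bodies above reflects the spread of these queens as well.

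Relative to length, g1_i1 was the most abundant contig in each group. Its median level per kilobase of contig was 107 CPM in old fat bodies, 4.80 CPM in young fat bodies, 26.5 CPM in old brains and 33.5 CPM in young brains. On the same per-kilobase scale g3_i1 was second in old fat bodies at 31.4 CPM, ahead of g2_i1 at 16.8 CPM and g2_i2 at 10.9 CPM. In young brains g3_i1 had 12.5 CPM per kilobase, g2_i1 4.32 CPM and g2_i2 1.08 CPM.

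In their share of the reads, g2_i1 and g3_i1 had medians that lay farther apart between tissues than between ages. Contig g1_i1 took a median of 70.7% of the counts of the 4 contigs in old fat bodies, 68.7% in young fat bodies, 72.9% in old brains and 73.2% in young brains. The share of g3_i1 was 3.61% to 6.26% in old fat bodies with a median of 4.71%, against 3.77% to 7.84% with a median of 6.99% in old brains. In young queens its median share was 2.98% in fat bodies and 6.73% in brains. Contig g2_i1 had a median share of 21.6% in old fat bodies and 18.7% in old brains, and 24.1% in young fat bodies and 18.7% in young brains. The young fat bodies ranged widely in these shares, as the 4 contigs together had as few as 19 counts in 1 of them. The shares were not tested.

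**Figure D4:**
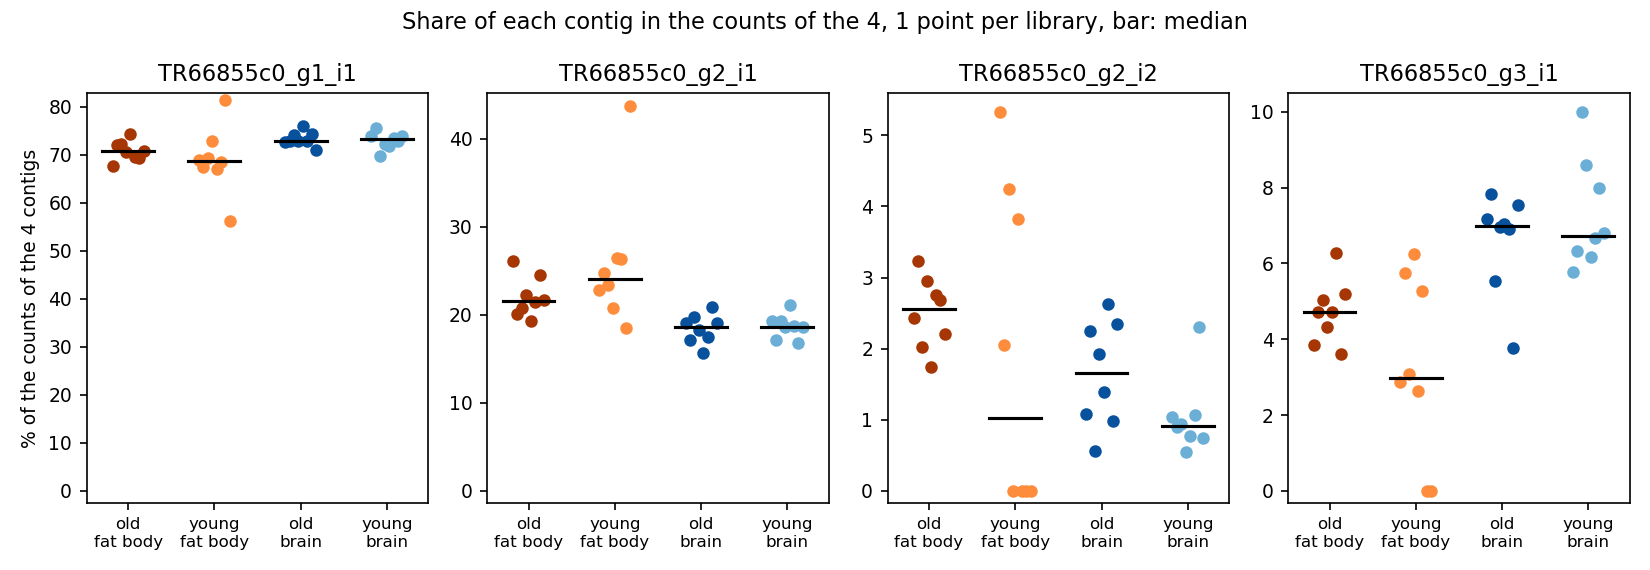
Share of each contig in the summed counts of the 4 contigs, in percent, 1 point per library with the group median as a bar. The median share of g3_i1 is 4.71% in old fat bodies and 2.98% in young fat bodies, and the brains lie higher, at 6.99% in old and 6.73% in young queens.

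A list of words for purine and nucleoside enzymes found 7 further contigs with an ant hit, all of them from the authors' fat body age table. The enzyme that acts on the guanine released by the phosphorylase, guanine deaminase, was represented by 1 contig, TR75105c0_g1_i26. It had 3.90, 56.9 and 76.5 CPM in the lowest, median and highest old fat body, against 0, 1.14 and 5.75 CPM in young fat bodies, with no count in 4 of them. The authors' deposited table gave it a young-over-old log2 value of -3.12 with an adjusted p of 0.00987. The 7 contigs of the list did not all share this age direction. The groups overlapped for guanine deaminase. Old queen O-426 was lowest for both guanine deaminase and g1_i1, but other old queens differed in order. O-189, highest for g1_i1, had less guanine deaminase than any other old queen but O-426. O-482, highest for guanine deaminase, lay below the median of old fat bodies for g1_i1. Pearson's r of log2 CPM between guanine deaminase and g1 was 0.29 over old and 0.48 over young fat bodies. In old queens the guanine deaminase contig was higher in the fat body than in the brain by a log2 difference of 5.71 ± 1.13 (edgeR adjusted p = 0.00037), with 3 old brains at 0 counts. That difference is not independent of the choice of the contig, which was listed for its age difference in the fat body. The contig passed the count filter in old queens through its fat bodies, at 60 to 1393 counts, against 0 to 66 in old brains. It did not pass the count filter in young queens. Its whole component, whose other contigs need not follow it, was at 2.32 in old and 1.23 in young queens, higher in the fat body in both (edgeR adjusted p = 2.0e-08 and 1.3e-05).

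With TMM the summed guanine deaminase component in young queens thus went opposite to phosphorylase components g1 and g3. The named contig, untested there, was higher in the fat body of 4 of 8 young queens and lower in 0. With totals as scale it was higher in 3 and lower in 1. Scaling to totals moved the median of all components in young queens from -0.25 to -1.18. The value of the guanine deaminase component on that scale is not given here. Of the 7 listed contigs 6 could be tested in old queens, and all 6 were called higher in the fat body by edgeR, where 26.1% of all contigs tested were called higher and 29.7% lower. All 7 were listed for age in the fat body, so calls between tissues are not independent of that choice. Of 5 tested in young queens 4 were called higher and 1 lower, where 23.0% of all contigs were called higher and 34.0% lower. None of 5 passed for age in the brain by edgeR. The largest difference besides guanine deaminase was that of nucleoside diphosphate-linked moiety X motif 19, a hydrolase named from the Nudix family, at 4.87 ± 0.27 (edgeR adjusted p = 1.7e-09) in old and 3.88 ± 0.29 (edgeR adjusted p = 1.4e-08) in young queens. The 2 subunits of ribonucleoside-diphosphate reductase, which makes deoxynucleotides, were at 1.12 and 1.14 in old and 1.5 and 1.54 in young queens. Scaled to totals, these subunits were higher in the fat body of all 8 young queens but of just 2 and 3 of 8 old queens, and the 7-methylguanosine phosphate-specific 5'-nucleotidase was higher in 5 of 8 old queens. The contig lower in the fat body of young queens, at -0.43 ± 0.16 (edgeR adjusted p = 0.033), was a threonylcarbamoyladenosine tRNA methylthiotransferase, a tRNA-modifying enzyme that the list caught by the word adenosine. In old queens its direction turned with the scaling: with TMM edgeR called it higher in the fat body at 0.57 ± 0.17 (adjusted p = 0.0087), but scaled to totals it was lower in the fat body of all 8 old queens. Inosine-5'-monophosphate dehydrogenase, which commits inosine monophosphate to guanine nucleotides, had 19 counts at most in any library and was not tested. With age, the 7 contigs went in both directions. The authors' deposited young-over-old log2 values were 1.04 for the 5'-nucleotidase and 0.582 and 0.412 for the reductase subunits, all lower in old fat bodies. They were -1.06 for X motif 19, -0.734 for the tRNA enzyme and -3.12 for both the dehydrogenase and guanine deaminase, all higher in old fat bodies.

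Among the described ant contigs with a protein name, those whose fat body levels varied most like the phosphorylase within ages were its own contigs. Likeness was Pearson's r of log2 CPM over the 16 fat bodies after subtracting each age's mean, computed against 530 or 531 contigs per component, and the other members gave 0.90 to 0.98. The next contig for g1 was phosphoenolpyruvate carboxykinase-like, named for the entry enzyme of gluconeogenesis, with r = 0.79 over all 16, 0.58 over the old and 0.85 over the young fat bodies. For g2 it gave 0.81. It had 249 to 1851 CPM in old and 29.2 to 620 CPM in young fat bodies, and in the brain its median was 3.57 CPM (old queens) and 0.461 CPM (young queens). The old brains spread widely around that median, from 0.0917 CPM in O-269 to 176 CPM in O-796. Old brains O-469 and O-482 were also high, at 54.8 and 27.8 CPM. The source of these brain levels was not tested. Synaptobrevin homolog 2-like, a vesicle fusion protein by name, gave 0.72 for g1, from -0.20 in old and 0.96 in young queens, so its likeness lay in the young queens. VAT-1 homolog-like gave 0.73 for both g2 and g3, with 0.22 and 0.29 over old and 0.82 and 0.81 over young fat bodies. Protein Mo25, known as a scaffold of the kinase LKB1, gave 0.69 for g2 and 0.73 for g3, with 0.54 and 0.55 over old and 0.82 and 0.90 over young fat bodies. By median, VAT-1 homolog-like was higher in old fat bodies, at 367 CPM against 129 CPM in young ones. Synaptobrevin homolog 2-like and Mo25 were lower, at 4.12 and 88.5 CPM in old against 6.36 and 116 CPM in young fat bodies. The young fat bodies lay in separate ranges of g1_i1 level. For g3_i1 these ranges lay close, with Y-453 at 0.411 CPM and Y-361 at 0.180 CPM. The r over young fat bodies reflects how these queens were spread. The described contigs were chosen by the authors for age in these libraries, and only 3 contigs per component reached an r of 0.8, the other members and, for g2, the carboxykinase.

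**Figure D5:**
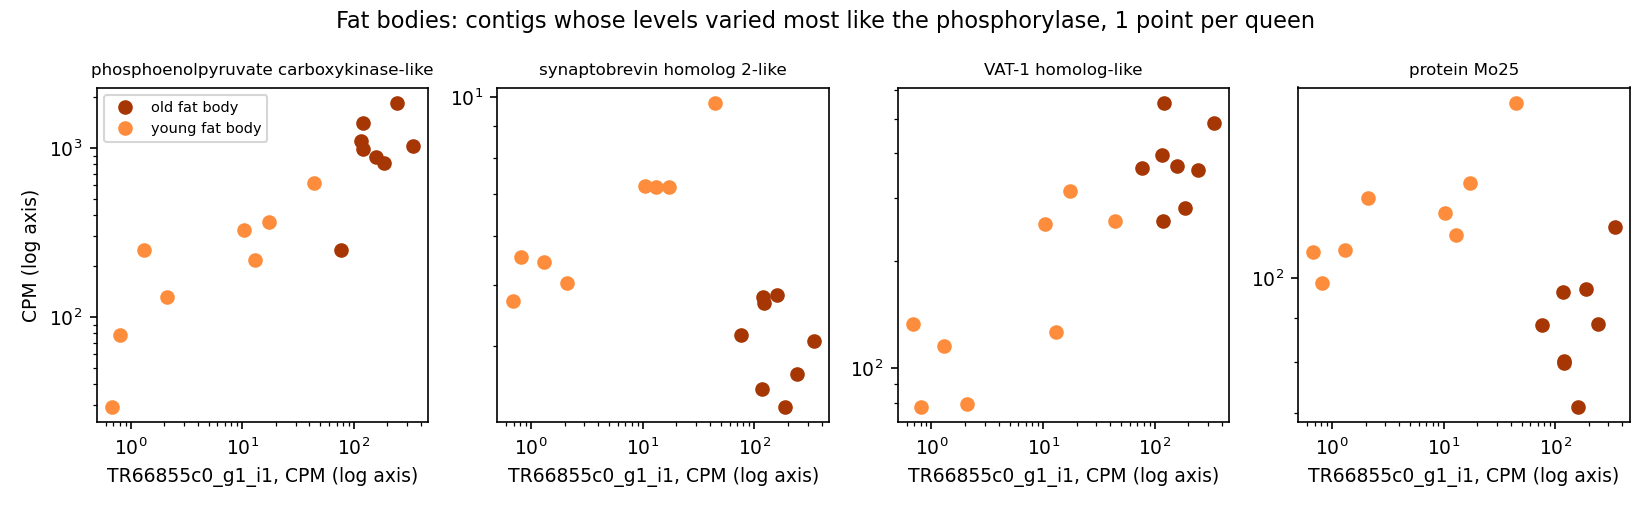
Level of 4 contigs in CPM against that of g1_i1 in CPM, both on log axes, in old and young fat bodies, 1 point per queen. The carboxykinase-like contig is higher where g1_i1 is higher across both ages, with r = 0.79 after removing the age means, and the synaptobrevin-like contig follows g1_i1 in young queens, at r = 0.96, but not in old ones.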

How the data were processed

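RNA was sequenced from brain and fat body of 16 queens, and per the labels 2 lanes were merged for the brain of young queen Y-134. The authors deposited whole-number counts for 228763 contigs of a transcript assembly with no scaling. Per the submitters' processing notes the tools were RSEM 1.3.0, Bowtie and Bowtie2, DESeq2 1.2.10, Trimmomatic 0.36 and FastQC 0.11.5, with no roles stated; which program assembled the contigs was not given in the sources. RSEM shares reads among similar transcripts, so counts may be rounded estimates. The authors also deposited their own comparisons, per the file headers with a mean normalised count signal, log2 fold change and its error, a test score, and p-values with their adjustment. In the deposited age tables log2 runs young over old, and protein names stand in the age tables alone.

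Tests used edgeR 4.0.16 (quasi-likelihood, TMM, filterByExpr with minimum count 10 and total 15) in R 4.3.3, fitted per comparison on its own 16 libraries over the whole table, adjusted by Benjamini-Hochberg, calling an adjusted p under 0.05. CPM shown use TMM over all 32 libraries. Brain and fat body of a number come from 1 queen, per the labels. Their deviations from group means correlated at 0.329 to 0.401 within queens and at most -0.001 between queens. Alternatives were DESeq2 1.42.0, no count filter, 2 other scalings, all 32 libraries in 1 fit, the queen block and leaving out each library. The tests were checked on simulated data. Named contigs were the members, all ant-hit contigs matching a purine and nucleoside word list, and the 5 contigs most alike per component. The members and lists were chosen with earlier results of these data known.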

Additional observations from a re-analysis of the deposited data

Results flagged for a closer look

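Young queen Y-333 stood apart from the other young fat bodies in 3 phosphorylase contigs. This fat body had 44.2 CPM of g1_i1, against 17.4 CPM in the next young queen, 14.9 CPM of g2_i1, against 6.39 CPM, and 2.70 CPM of g2_i2, against 1.01 CPM. Young queen Y-361 stood apart in the brain, with 106 CPM of g1_i1, against 56.3 CPM in the next young brain, 27.4 CPM of g2_i1, against 16.5 CPM, and 12.7 CPM of g3_i1, against 5.32 CPM. The fat body of the same queen was among the 4 lowest for g1_i1, at 2.10 CPM. In the purine list, old queen O-796 was highest in the brain for the 7-methylguanosine phosphate-specific 5'-nucleotidase at 9.98 CPM, against 5.74 CPM in the next old brain, and for the large subunit of ribonucleoside-diphosphate reductase at 15.8 CPM, against 10.9 CPM. Guanine deaminase-like reached 2.85 CPM in the young brain of Y-102, against 0.218 CPM in the next one. For normally distributed values chance sets apart about 1 in 20 groups. Here 9 of 44 were set apart, several of them the same library in contigs that share a cluster. The CPM were not log-transformed for this and include libraries without a count. The rate by chance for such values is not known, so the number set apart has no fixed reference.

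For g3_i1 the fat body was above the brain in all 8 old queens, at a median ratio of 3.4, and below it in all 8 young queens, at a median ratio of 0.0499. This difference between the ages was not tested, and it contains the comparison that chose the contig. With totals as the scale, 5 of 8 old queens had the higher level in the fat body.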

How the results depend on the processing

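Calls of single contigs and components changed under some settings, while the number of members called stayed within 1.5 times. In young queens g2_i1 missed the threshold in the main edgeR fit at -1.69 but passed with DESeq2 (-1.79), with counts outside the 100 most abundant contigs as scale (-2.14), with totals as scale (-2.58), with all 32 libraries in 1 fit (-1.74) and with the queen as replicate block (-2.79). Component g2, at -1.49 in the main fit, passed without a count filter (-1.77), with the same 2 scales (-1.99 and -2.44), with all 32 libraries (-1.55) and with the replicate block (-2.57). In old queens g3_i1 and its component lost their calls with totals as scale, at 0.55 each. Scaling to totals was added after the data had been seen. The causes were not tested. The block changed no other call.

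Leaving out each library in turn gave -2.40 to -1.48 for g2_i1 and -2.23 to -1.29 for component g2 in young queens, each called only without the fat body of Y-333. Contig g2_i2 ranged from -1.05 to 0.0927 and changed sign 5 times. For g1_i1 the range was -2.92 to -1.93 and for g3_i1 -3.71 to -2.83, with 2 or 3 of the 4 contigs called each time. In old queens all 4 contigs stayed called, with g1_i1 at 2.22 to 2.62, and in brains none was called, with g1_i1 at -0.66 to -0.34.

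Over all contigs, 20026 were called in young queens, 38906 with DESeq2 and 51185 without a filter, and 19301 in old queens, 35480 and 38356. For components the counts were 16454, 30325 and 48810 in young and 15851, 28471 and 34845 in old queens. Age in the brain gave 0 contigs, against 571 with DESeq2 and 4 with all 32 libraries, and 0 components, against 989, 30 and, without a filter, 7. In young fat bodies g2_i2 had 0 to 40 counts, which limits the precision of its values there.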
